A study of Mus musculus with 6 samples.

Results

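Soleus (Sol) muscle of mice that had run voluntarily for weeks was examined here for the genes of glucose breakdown and of glycogen storage. The set holds 33 genes, taken by symbol from the 24411 genes that the count table lists. All 33 are listed, and all 33 were among the 12828 genes that passed the filter on low counts. Of them, 16 encode the route from glucose uptake to pyruvate, 4 act in glycogen breakdown and 6 in glycogen synthesis. The other members are 3 enzymes that set or reverse the phosphofructokinase step, 2 glycerol 3-phosphate dehydrogenases and 2 phosphoglucomutases.

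Poly(A) RNA from the Sol of 6 mice, 3 of them WT and 3 LSD1-mKO, was sequenced with 1 library each, and the question is how expression differed with the loss of the histone demethylase LSD1 (gene Kdm1a) from muscle under voluntary wheel running (VWR). All mice were C57BL/6 and carried Lsd1 flox/flox alleles. LSD1-mKO mice also carried CreERT2, a Cre recombinase that tamoxifen switches on, driven by the human ACTA1 promoter, whereas WT mice lacked CreERT2. Mice entered the experiment at 8 weeks of age and were housed singly with a wheel for 38 days. Tamoxifen (75 mg/kg daily, 5 doses) was given to WT and LSD1-mKO mice alike once they had had the wheel for 3 days, which left 30 days of recorded running. They were kept from the wheel and fasted before sampling, and no sedentary mice are part of the series. The ACTA1 promoter is active in differentiating and differentiated muscle cells, so blood, vessel and connective tissue cells of the sample keep Kdm1a, and CreERT2 itself is present in one genotype alone.

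Muscle obtains much of its quick energy by splitting glucose to pyruvate, and most of the glucose phosphate for this comes from glycogen stored in the fiber. Glycogen phosphorylase, switched on by phosphorylase kinase, releases glucose 1-phosphate, and phosphoglucomutase turns it into the glucose 6-phosphate that enters glycolysis. In the opposite direction, UDP-glucose pyrophosphorylase makes the activated sugar that glycogen synthase adds to the chain. Fast fibers are known for high levels of glycolytic enzymes and slow fibers for oxidative ones, and the mouse Sol holds mainly type I and type IIA fibers.

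The libraries held between 8940206 and 13798059 estimated counts. Values below are CPM scaled by the trimmed mean of M values (normalized CPM, counts relative to library total), which compare 1 gene between mice, or TPM, which divide by transcript length before scaling to a fixed total and so also allow genes to be compared. Kdm1a, the deleted gene, stood at 40.5, 38.2 and 33.6 normalized CPM in the WT mice and at 14.6, 16.6 and 16.6 in the LSD1-mKO mice, a log2 fold change of -1.23 ± 0.11 (SE; adjusted p = 0.016, edgeR's quasi-likelihood test). No LSD1-mKO mouse reached a WT value, although 5 of the 14 alternative fits put the adjusted p of Kdm1a above 0.05. WT mouse 1 stood apart from the other WT mice: markers of fibroblasts summed to 787 TPM there against 2136 and 2424, and those of immune cells to 110 TPM against 387 and 284. In the LSD1-mKO mice the fibroblast sums were 1670, 1063 and 1066 TPM and the immune sums 224, 119 and 169 TPM, within the WT ranges, and these lists had the lowest median log2 fold changes of the marker lists (-0.95 and -0.54), with 0 of 5 and 0 of 6 genes at an unadjusted p under 0.05. Of the fibroblast list, the collagen genes Col1a1, Col1a2 and Col3a1 ran from -1.08 to -0.95, whereas Pdgfra was at -0.14 and Dcn at -0.042. The low fibroblast median thus rested on the collagen genes and was not shared by the whole list. In bulk RNA, fewer cells of a type and less RNA per cell cannot be told apart. The muscle identity of the samples was plain, since 4 skeletal muscle markers summed to between 85450 and 94783 TPM. None of the marker genes examined for other cell types was at 0 in all 6 mice. Red blood cell markers summed to 705 to 2199 TPM in the WT mice and to 987 to 1454 in the LSD1-mKO mice, adipocyte markers to 1175 to 1471 and 1217 to 1426, and Schwann cell markers to 127 to 163 and 131 to 155. Of the 5 red blood cell markers, 1, Hba-a1, was higher at an unadjusted p under 0.05 (log2 fold change 3.95; unadjusted p = 0.0189 and adjusted p = 0.684, edgeR). It was at 13.5, 5.76 and 0 normalized CPM against 2.59, 78 and 202, with overlap, and its counts were not whole in any library. Hba-a2, Hbb-bs, Hbb-bt and Alas2 were at -0.58, -0.011, -0.03 and -0.24.

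No member passed an adjusted p of 0.05 in either direction. By edgeR's quasi-likelihood test with Benjamini-Hochberg adjustment over all 12828 genes, 1 gene was called higher and 1 lower in the LSD1-mKO mice, which is 0.00780% of the genes in each direction. DESeq2 called 42 genes and limma voom called 3, with 0 members in either. At an unadjusted p under 0.05, 2 of the 33 members were higher, Hk1 and Ugp2, against 3.52% of all genes tested, and 0 were lower, against 2.88%. DESeq2 and limma voom also counted 2 members higher and 0 lower at that limit. Over all 12828 genes, DESeq2 counted 349 higher and 228 lower, and limma voom 448 higher and 361 lower. With 3 mice per genotype these p-values measure only the spread between these mice, and an exact two-sided permutation test of 3 against 3 cannot go below 0.1.

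Counted by mouse instead, all 3 LSD1-mKO values lay above all 3 WT values for 2 members, Hk1 and Ugp2, as they did for 6.63% of all genes tested. For 1 member, Pfkp, they all lay below, as for 6.10% of genes. The remaining 30 members had overlapping groups. The fitted difference was above 0 for 22 of the 33 members, against 45.2% of all genes, and below 0 for 11. The median log2 fold change of the members was 0.043, with a range from -0.40 (Fbp2) to 0.37 (Hk1), where all tested genes together had a median of -0.020.

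**Figure D1:**
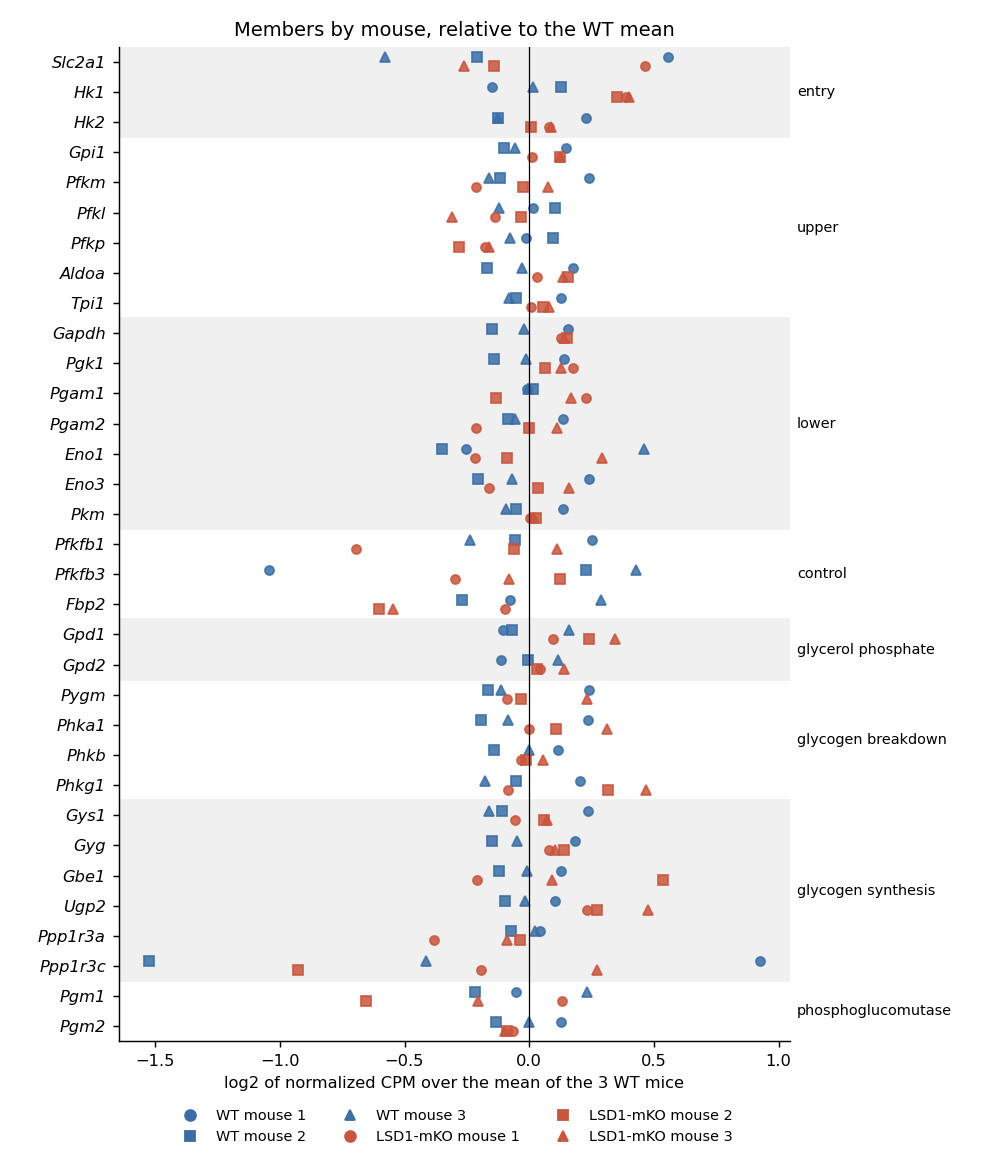
Each point is 1 mouse, placed on the x axis by the log2 of its normalized CPM over the mean of the 3 WT mice, with the 33 genes in rows grouped by role (WT blue, LSD1-mKO red, marker shape for the mouse number). Most genes keep within 0.5 of 0 and mix the genotypes, Hk1 and Ugp2 separate to the right and Pfkp to the left, and Ppp1r3c spreads most widely.

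Entry of glucose begins with its transport and its phosphorylation by hexokinase, which traps it in the cell. Hk1, the hexokinase found in most tissues, was at 23.6, 28.6 and 26.5 normalized CPM in the WT mice and at 34.3, 33.4 and 34.6 in the LSD1-mKO mice. The 3 LSD1-mKO mice were nearly equal and each exceeded the highest WT mouse. The log2 fold change was 0.37 ± 0.10 (SE; 95% interval 0.15 to 0.60), with an unadjusted p of 0.00449 and an adjusted p of 0.534 by edgeR's quasi-likelihood test. Leaving out each mouse in turn kept the difference between 0.31 and 0.44. Hk1 is also made by non-muscle cells, and its lowest value fell in WT mouse 1, where the endothelial markers summed to 214 TPM against 363 and 293 in the other WT mice. The same sum was 292, 249 and 254 TPM in the LSD1-mKO mice, within the WT range, and the part of these cells in the Hk1 difference was not tested.

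Hk2, the main hexokinase of skeletal muscle and the entry gene with the highest level per length, was at 652, 510 and 510 normalized CPM in the WT mice and at 588, 559 and 591 in the LSD1-mKO mice. WT mouse 1 was above every LSD1-mKO mouse and the other WT mice were below, so the groups overlapped. Its log2 fold change was 0.06 ± 0.12 (SE; 95% interval -0.21 to 0.33; adjusted p = 0.942, edgeR). Of the TPM of both hexokinases, Hk2 made up 95.5%, 93.3% and 93.7% in the WT mice and 93.0%, 92.9% and 93.0% in the LSD1-mKO mice. The share was thus 94.2% ± 1.2 (SD, n = 3) against 93.0% ± 0.083, and every LSD1-mKO mouse lay below every WT mouse, by a small margin that includes the Hk1 values already given. Slc2a1, a glucose transporter of most cells, spread from 15 to 32.9 normalized CPM among the WT mice and from 18.7 to 30.9 among the LSD1-mKO mice, with a 95% interval of -0.60 to 0.75 for its log2 fold change.

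Hk1 lies at chr10:62268855-62379908 on the minus strand (GRCm38, GENCODE vM21), and RefSeq gives it more than 1 start. Counts per gene do not show which start was used. The bases before each start are shown because Hk1 had the lowest unadjusted p among the members. They run 5′ to 3′ on the gene's strand, from RefSeq on GRCm38.p6, and were cut where an annotated exon begins.
Hk1, chr10:62340543-62340671: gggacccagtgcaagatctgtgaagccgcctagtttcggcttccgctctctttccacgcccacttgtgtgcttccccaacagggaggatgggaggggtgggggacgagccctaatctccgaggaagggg
Hk1, chr10:62379909-62380158: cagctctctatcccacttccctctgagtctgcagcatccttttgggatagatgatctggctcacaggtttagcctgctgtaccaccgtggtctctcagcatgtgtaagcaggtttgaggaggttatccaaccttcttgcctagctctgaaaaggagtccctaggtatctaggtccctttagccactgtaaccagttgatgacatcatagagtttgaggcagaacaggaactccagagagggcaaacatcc
Neither stretch holds the letters of the 3 motifs searched. These were AAGGTCA, the core of the element that estrogen-related receptors bind, CACGTG, an E-box, and GGGCGG, a GC box, each on both strands and none overlapping another in its letters.

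The upper part of glycolysis turns glucose 6-phosphate into triose phosphates, with phosphofructokinase as its main point of control. Aldoa, the muscle aldolase and the member with the highest level per length, was at 5262, 4143 and 4560 normalized CPM in the WT mice and at 4763, 5183 and 5113 in the LSD1-mKO mice. The lowest 2 values were in WT mice and the highest was in WT mouse 1, so the groups overlapped. The log2 fold change was 0.11 ± 0.14 (SE; 95% interval -0.21 to 0.43). The Aldoa count was not whole in any of the 6 libraries, as where reads are divided among near-identical copies, and its level is uncertain to that extent.

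Pfkm, the phosphofructokinase of muscle, made up 98.7% to 99.1% of the TPM of the 3 phosphofructokinase genes in the WT mice and 98.9% to 99.1% in the LSD1-mKO mice. Pfkp, the platelet form, was the sole member with all LSD1-mKO mice below all WT mice. It was at 10.1, 10.9 and 9.68 normalized CPM in the WT mice and at 9.03, 8.40 and 9.13 in the LSD1-mKO mice, and the nearest values of the groups differed by less than 1 CPM. Its count was not whole in 5 of 6 libraries. Its log2 fold change was -0.21 ± 0.13 (SE; 95% interval -0.51 to 0.09; unadjusted p = 0.142 and adjusted p = 0.781, edgeR), and it was the lowest of the members in level per length. Pfkl, the liver form, had a log2 fold change of -0.16 ± 0.12 (SE) with overlapping groups. Gpi1, which isomerizes glucose 6-phosphate, and Tpi1, which interconverts the triose phosphates, had 95% intervals of -0.15 to 0.32 and -0.18 to 0.28.

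Pfkp lies at chr13:6579768-6648777 on the minus strand. The bases before its start, shown because it was the member with the groups apart in the lower direction, hold GGGCGG or its reverse complement 4 times (capitals).
Pfkp, chr13:6648778-6649021: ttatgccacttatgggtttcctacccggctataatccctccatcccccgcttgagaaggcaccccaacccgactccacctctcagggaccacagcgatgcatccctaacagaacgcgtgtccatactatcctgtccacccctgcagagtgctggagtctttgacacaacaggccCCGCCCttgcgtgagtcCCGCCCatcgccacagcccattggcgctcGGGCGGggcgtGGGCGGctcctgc

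Lower glycolysis recovers ATP while turning triose phosphate into pyruvate. Gapdh, which makes NADH at the first of these steps and was the group's highest gene per length, was at 1640, 1328 and 1450 normalized CPM in the WT mice and at 1609, 1636 and 1623 in the LSD1-mKO mice. The LSD1-mKO mice lay close together, just under WT mouse 1 and above the other WT mice. Its log2 fold change was 0.14 ± 0.11 (SE; 95% interval -0.12 to 0.40; adjusted p = 0.843, edgeR), and its counts too were not whole in any library. The remaining 6 genes of lower glycolysis, Pgk1, Pgam1, Pgam2, Eno1, Eno3 and Pkm, ranged from -0.03 to 0.12 in log2 fold change, and all 7 intervals lay within 1.5-fold in either direction.

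Muscle forms carried almost all of the isoform pairs of lower glycolysis in both genotypes. Pgam2, the muscle phosphoglycerate mutase, was 97.9% ± 0.18 (SD, n = 3) of the TPM of Pgam1 and Pgam2 in the WT mice and 97.7% ± 0.47 in the LSD1-mKO mice. Eno3, the muscle enolase, was 96.5% ± 1.2 of Eno1 and Eno3 in the WT mice and 96.6% ± 0.31 in the LSD1-mKO mice. Eno1 is uncertain, because the table lists a near-identical copy, Eno1b, whose level ran against it: Eno1 was at 58.1, 54.3 and 95.2 normalized CPM in the WT mice where Eno1b was at 43.2, 65.3 and 30.6. Summed, they were at 101, 120 and 126 in the WT mice and at 127, 115 and 117 in the LSD1-mKO mice, which overlapped.

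Scaling mattered for a few of these genes. On TPM, 4 of the 31 members with an assigned length had all LSD1-mKO mice above all WT mice, against 5.57% of genes, and 1 had all below, against 5.96%. The 4 were Hk1, Ugp2, Gapdh and Pgk1, and the 1 was Pfkp. Gapdh was at 2360, 2225 and 2300 TPM in the WT mice and at 2486, 2548 and 2532 in the LSD1-mKO mice. Pgk1, the kinase that makes the first ATP of the pathway, was at 646, 620 and 641 TPM against 711, 663 and 695. On normalized CPM, WT mouse 1 lay within or above the LSD1-mKO values for both.

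The control genes act around fructose 6-phosphate. Pfkfb1 and Pfkfb3 make and remove fructose 2,6-bisphosphate, the activator of phosphofructokinase, and Fbp2 is the muscle fructose bisphosphatase that reverses its step. All 3 were fitted lower in the LSD1-mKO mice and none passed the test. Pfkfb1, the highest per length, was at 43.9, 35.5 and 31.3 normalized CPM in the WT mice and at 22.8, 35.4 and 39.9 in the LSD1-mKO mice, and only LSD1-mKO mouse 1 lay below the WT range. Fbp2, picked out after its values were seen, had the lowest log2 fold change of the members, -0.40 ± 0.21 (SE; 95% interval -0.87 to 0.08; unadjusted p = 0.0907 and adjusted p = 0.773, edgeR). It was at 9.16, 8.01 and 11.8 normalized CPM against 9.03, 6.37 and 6.61, so LSD1-mKO mouse 1 fell inside the WT range. RefSeq lists the name Fbp2 also as a synonym of Fbp1 and Khsrp, and Fbp1 as a synonym of Fbp2. Fbp1 was at 0 normalized CPM in every mouse. The TPM of Fbp2 takes its symbol as given.

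Pfkfb3, also picked out after its values were seen, was at 15.1 normalized CPM in WT mouse 1 against 36.4 and 41.8 in the other WT mice, and at 25.3, 33.9 and 29.4 in the LSD1-mKO mice. The WT mice spanned the LSD1-mKO mice on both sides. Without WT mouse 1 its log2 fold change moved to -0.40 with an unadjusted p of 0.0194 and an adjusted p of 0.273 (edgeR). The ratio of Fbp2 to Pfkm TPM was 0.0113 ± 0.0033 (SD, n = 3) in the WT mice and 0.00883 ± 0.0027 in the LSD1-mKO mice, with overlap.

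Gpd1, the cytosolic glycerol 3-phosphate dehydrogenase that draws on triose phosphate to reoxidize NADH, was at 49.4, 50.6 and 59.3 normalized CPM in the WT mice and at 56.8, 62.7 and 67.3 in the LSD1-mKO mice. WT mouse 3 exceeded LSD1-mKO mouse 1 and the other WT mice were below all LSD1-mKO mice. Its log2 fold change was 0.23 ± 0.11 (SE; 95% interval -0.01 to 0.47; unadjusted p = 0.0615 and adjusted p = 0.766, edgeR). Gpd2, its mitochondrial partner, had a log2 fold change of 0.07 ± 0.10 (SE).

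Glycogen breakdown rests on Pygm, the muscle glycogen phosphorylase, which was at 2498, 1886 and 1956 normalized CPM in the WT mice and at 1986, 2067 and 2478 in the LSD1-mKO mice. The highest mouse of each genotype was nearly equal and the groups overlapped. The log2 fold change was 0.04 ± 0.15 (SE; 95% interval -0.30 to 0.39; adjusted p = 0.964, edgeR). Phka1, Phkb and Phkg1, subunits of the phosphorylase kinase that switches Pygm on, had log2 fold changes of 0.15 ± 0.13, 0.01 ± 0.09 and 0.25 ± 0.15 (SE). Thus 4 of 4 genes were fitted above 0, 0 of 4 passed, and the groups overlapped for each. Phkg1, the catalytic subunit of muscle, was at 89.0, 74.6 and 68.4 normalized CPM against 72.8, 96.3 and 107, and its counts were not whole in any library.

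Glycogen synthesis held the member with the second lowest unadjusted p, Ugp2, which encodes the UDP-glucose pyrophosphorylase. It was at 1117, 972 and 1027 normalized CPM in the WT mice and at 1219, 1253 and 1445 in the LSD1-mKO mice. LSD1-mKO mouse 3 was highest, and the lowest LSD1-mKO mouse exceeded WT mouse 1, the highest of its group. The log2 fold change was 0.33 ± 0.11 (SE; 95% interval 0.07 to 0.59), with an unadjusted p of 0.0185 and an adjusted p of 0.680 by edgeR's quasi-likelihood test. On TPM the WT mice were closer to each other, at 851, 862 and 863, and the LSD1-mKO mice were at 996, 1033 and 1194. Leaving out each mouse in turn gave log2 fold changes between 0.25 and 0.39.

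Ugp2 lies at chr11:21321138-21371201 on the minus strand, and RefSeq gives it a pair of starts. The bases before each are shown because Ugp2 had the second lowest unadjusted p among the members, with GGGCGG or its reverse complement in capitals.
Ugp2, chr11:21370630-21370879: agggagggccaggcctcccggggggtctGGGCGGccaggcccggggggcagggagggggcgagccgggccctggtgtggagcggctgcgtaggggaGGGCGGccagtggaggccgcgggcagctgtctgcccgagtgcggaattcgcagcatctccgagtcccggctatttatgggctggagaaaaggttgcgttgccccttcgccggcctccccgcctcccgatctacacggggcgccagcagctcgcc
Ugp2, chr11:21371268-21371517: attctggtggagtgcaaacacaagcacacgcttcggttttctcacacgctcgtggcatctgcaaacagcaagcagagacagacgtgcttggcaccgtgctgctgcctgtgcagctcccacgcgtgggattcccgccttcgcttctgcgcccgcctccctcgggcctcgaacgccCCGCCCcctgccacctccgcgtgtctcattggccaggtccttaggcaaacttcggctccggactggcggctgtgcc
The first stretch holds GGGCGG 2 times and is 73.6% G and C, and the second holds it 1 time and is 64.0% G and C.

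Gys1, the muscle glycogen synthase, did not separate the genotypes, with a log2 fold change of 0.03 ± 0.12 (SE; 95% interval -0.26 to 0.31). The ratio of Gys1 to Pygm TPM was 0.222, 0.231 and 0.215 in the WT mice and 0.227, 0.237 and 0.200 in the LSD1-mKO mice. The LSD1-mKO mice thus held both the highest and the lowest ratio. Gyg, the protein primer of glycogen, and Gbe1, the branching enzyme, had log2 fold changes of 0.11 ± 0.11 and 0.17 ± 0.18 (SE). Gbe1 was at 270 normalized CPM in LSD1-mKO mouse 2, above every other mouse, and at 161 in LSD1-mKO mouse 1, below every other mouse.

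Ppp1r3a and Ppp1r3c encode subunits that tether protein phosphatase 1 to glycogen, where it activates glycogen synthase. Ppp1r3a had a log2 fold change of -0.16 ± 0.11 (SE). Ppp1r3c, picked out after its values were seen, was at 541, 99.1 and 214 normalized CPM in the WT mice and at 249, 150 and 344 in the LSD1-mKO mice. Its highest and lowest values were both in WT mice and 5.45-fold apart, against a median range of 1.34-fold for the members and 1.4-fold for all genes tested. The log2 fold change was -0.20 ± 0.54 (SE; 95% interval -1.44 to 1.04), an interval that leaves more than a doubling or a halving in reach of these 3 mice per genotype. Without WT mouse 1 the estimate turned to 0.66.

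Ppp1r3c lies at chr19:36731731-36736653 on the minus strand. The bases before its start are shown because its level varied most among the members, and they hold CACGTG 1 time (capitals).
Ppp1r3c, chr19:36736654-36736854: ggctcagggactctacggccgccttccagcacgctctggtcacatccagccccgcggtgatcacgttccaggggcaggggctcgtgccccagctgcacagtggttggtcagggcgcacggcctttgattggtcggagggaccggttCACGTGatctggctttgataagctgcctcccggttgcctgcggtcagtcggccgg

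**Figure D2:**
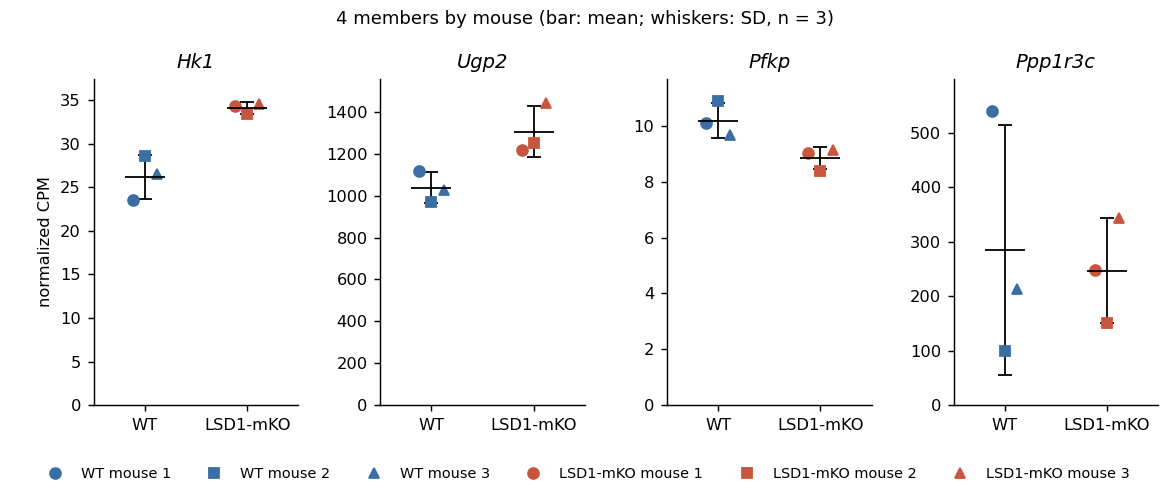
Normalized CPM of Hk1, Ugp2, Pfkp and Ppp1r3c in each of the 6 mice, with the mean as a bar and the SD (n = 3) as whiskers, each panel on its own y axis from 0. Hk1 at 33.4 to 34.6 and Ugp2 at 1219 to 1445 in the LSD1-mKO mice sit above all WT mice, Pfkp at 8.40 to 9.13 sits below, and Ppp1r3c spans 99.1 to 541 within the WT mice.

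Across the set, RefSeq gave 47 starts for 32 of the 33 members, and the 250 bases before each were searched. AAGGTCA was in 2 of the 47 member windows, those of Eno1 and Pfkfb1, and in 4.08% of all 32851 promoters in the table. CACGTG was in 4 of the 47, those of Pfkm, Pfkfb3, Fbp2 and Ppp1r3c, and in 6.02% of all. GGGCGG was in 23 of the 47 member windows and in 32.7% of all. A match describes letters in the window and says nothing of binding.

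The phosphoglucomutases, which link glycogen to glycolysis, are listed as Pgm1 and Pgm2. RefSeq gives each symbol as a former name of the other, so which enzyme each stands for is open and no TPM was computed. Pgm2, the higher of them, was at 357, 298 and 327 normalized CPM in the WT mice and at 313, 307 and 306 in the LSD1-mKO mice, all within the WT range. The log2 fold change was -0.08 ± 0.09 (SE; adjusted p = 0.889, edgeR), and that of Pgm1, at 4.85 to 8.97 normalized CPM, was -0.21 ± 0.23.

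**Figure D3:**
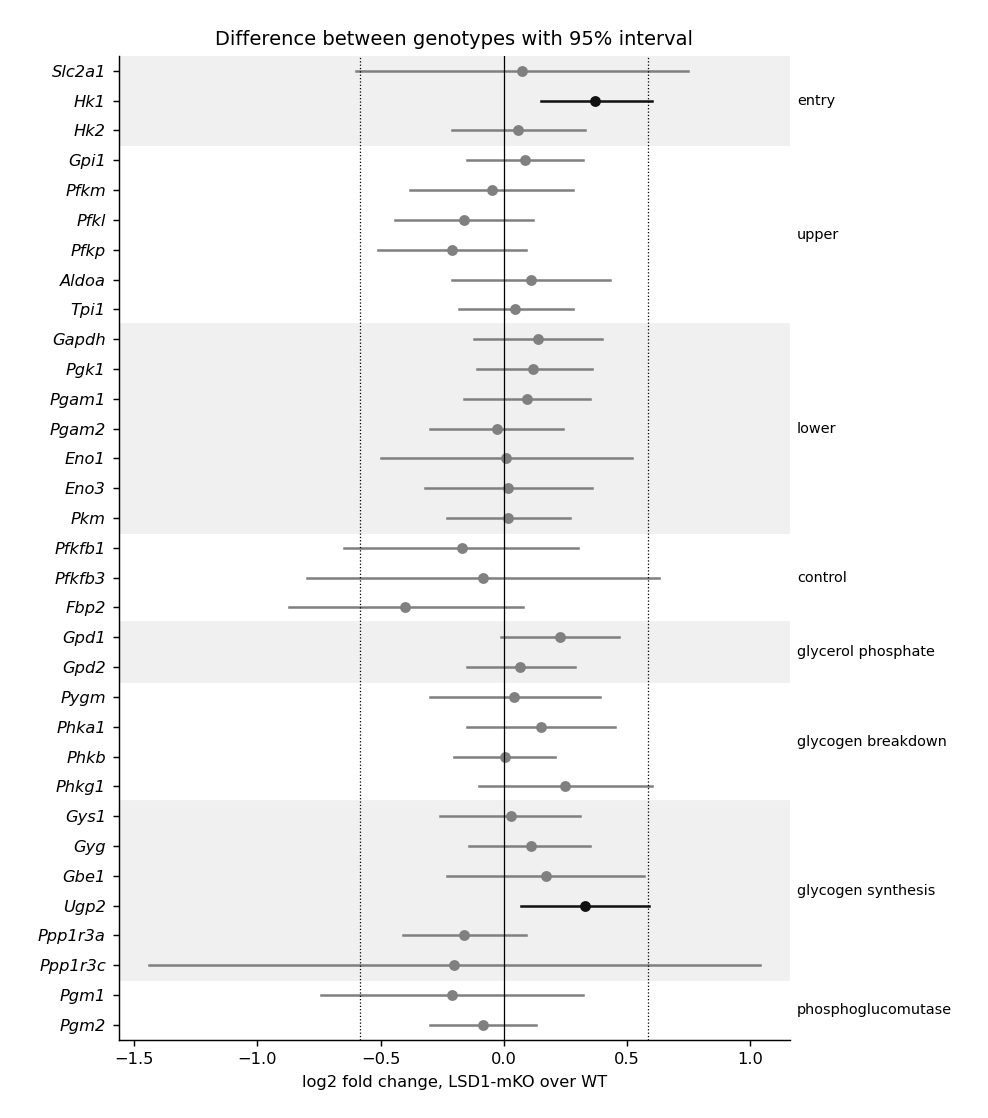
Points give the log2 fold change of LSD1-mKO over WT for each of the 33 members in rows by role, bars the 95% interval, black where the unadjusted p is under 0.05, and dotted lines mark 1.5-fold in either direction. The intervals of Hk1 (0.15 to 0.60) and Ugp2 (0.07 to 0.59) leave out 0, and that of Ppp1r3c is the widest.

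Glycolysis, glycogen breakdown and glycogen synthesis were then set side by side. The median log2 fold change was 0.052 over the 16 glycolysis genes, 0.096 over the 4 breakdown genes and 0.067 over the 6 synthesis genes. Fitted values above 0 numbered 12 of 16, 4 of 4 and 4 of 6. Unadjusted p was under 0.05 for 1 of 16 (Hk1), 0 of 4 and 1 of 6 (Ugp2). Within glycolysis the medians of entry, upper and lower parts were 0.075, -0.001 and 0.018. The 3 routes therefore differed by less than 0.05 in their medians, and genes within each route differed by more.

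The intervals bound what these mice could show. The 95% interval lay within 1.5-fold in both directions for 14 of the 16 glycolysis genes, 3 of the 4 breakdown genes and 4 of the 6 synthesis genes, and for 24 of all 33 members, against 63.3% of all genes tested. It did so for 0 of the 3 control genes. The members whose interval reached past 1.5-fold were Slc2a1, Hk1, Pfkfb1, Pfkfb3, Fbp2, Phkg1, Ugp2, Ppp1r3c and Pgm1. For those members these 6 mice did not bound the difference to under 1.5-fold.

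Levels per length were summed over each route, and the sums hold different numbers of genes, 16 for glycolysis, 4 for breakdown and 6 for synthesis. Per gene, the median level was 567 TPM for glycolysis, 64.5 for breakdown and 292 for synthesis in the WT mice, and 609, 74.3 and 284 TPM in the LSD1-mKO mice. Summed TPM of glycolysis was 19529, 18352 and 18400 in the WT mice and 18399, 19926 and 20389 in the LSD1-mKO mice. Breakdown summed to 1969, 1742 and 1708 against 1692, 1796 and 2137. Synthesis summed to 2536, 2148 and 2222 against 2389, 2509 and 2766. All 3 sums overlapped between genotypes. Means were 18760 ± 666 against 19571 ± 1041 for glycolysis, 1807 ± 142 against 1875 ± 233 for breakdown, and 2302 ± 206 against 2555 ± 192 for synthesis (SD, n = 3).

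Glycolysis summed to 10.4 ± 0.44 times breakdown in the WT mice and to 10.5 ± 0.84 times in the LSD1-mKO mice (SD, n = 3), with overlap. Ratios between routes rest on the longest transcript of each gene. The sums behind them moved with the median length, as given in the last section, and the SD does not include this. Glycolysis over synthesis was 7.7, 8.54 and 8.28 in the WT mice (8.17 ± 0.43). It was 7.7, 7.94 and 7.37 in the LSD1-mKO mice (7.67 ± 0.29), and the groups overlapped. Synthesis over breakdown was 1.29, 1.23 and 1.30 in the WT mice and 1.41, 1.4 and 1.29 in the LSD1-mKO mice, so 2 of the LSD1-mKO mice were above the WT range and 1 was inside it. Ppp1r3c and Ugp2 are both part of the synthesis sum, and their values by mouse are given above.

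**Figure D4:**
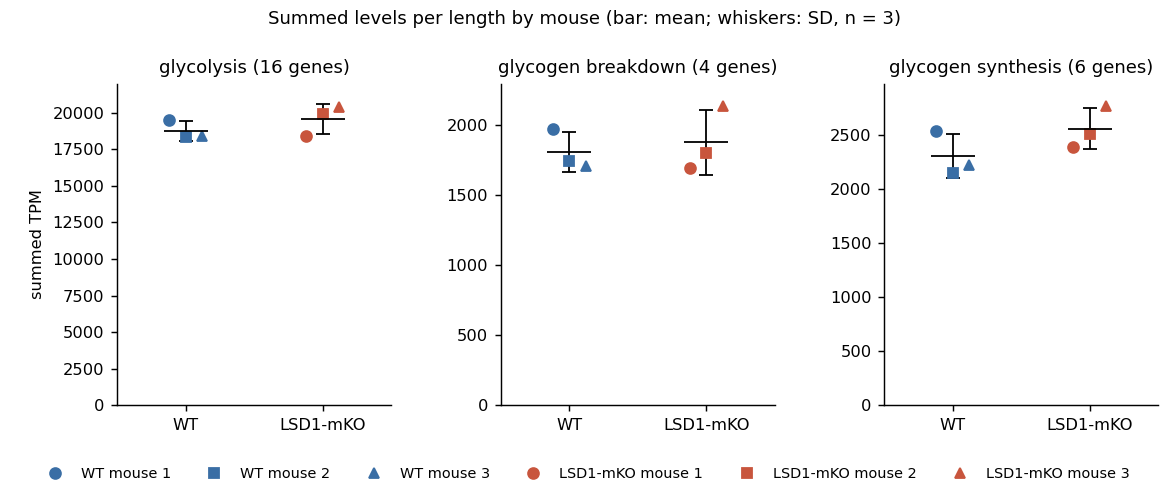
Summed TPM of the 16 glycolysis, 4 glycogen breakdown and 6 glycogen synthesis genes in each mouse, with the mean as a bar and the SD (n = 3) as whiskers, each y axis starting at 0. The genotypes overlap in all 3 panels, and WT mouse 1 is the highest WT mouse in each.

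In order of level per length, Aldoa led with 6362 to 7401 TPM over the 6 mice, apart from every other member. Gapdh (2225 to 2548 TPM), Eno3, Pgam2, Pygm, Pkm, Pfkm, Tpi1 and Ugp2 (851 to 1194 TPM) followed, each overlapping the next in range except that Ugp2 stood clear of the Gyg range that came after it. Pygm at 1516 to 1910 TPM thus ranked among the enzymes of lower glycolysis. This order rests on the longest transcript of each gene and is not given for the median length, with which the route sums moved. The lowest members were Pfkl, Gpd2 and Pfkp, with Pfkp at 4.48 to 6.26 TPM. Subunits of phosphorylase kinase lay far below the enzyme they act on, with Phkb at 52.0 to 56.0 TPM.

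**Figure D5:**
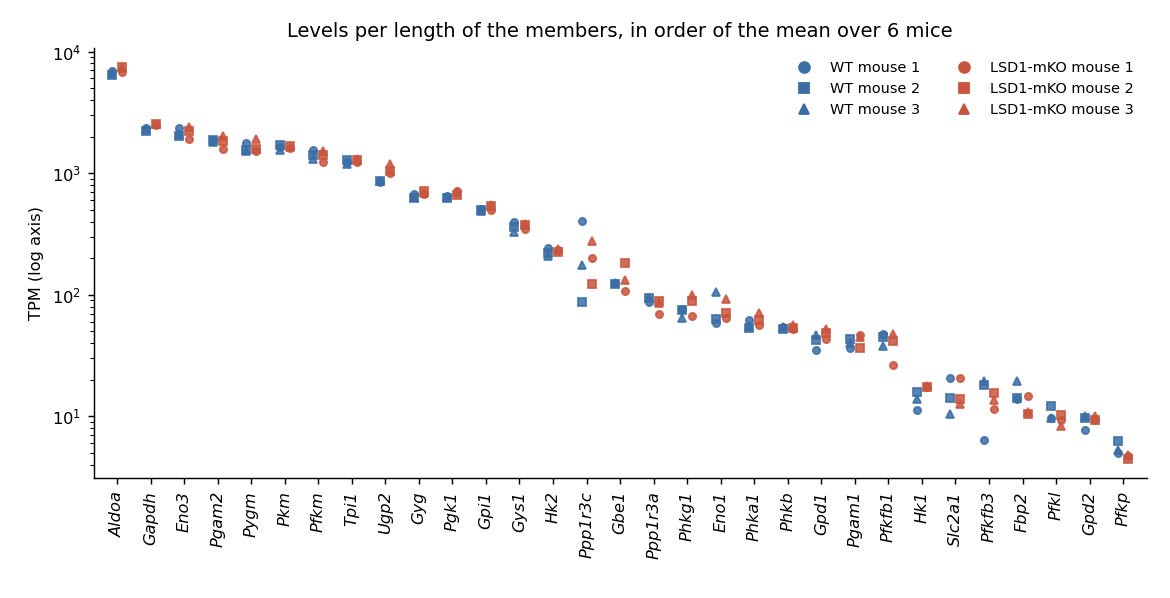
TPM on a log axis for the 31 members with an assigned length, ordered by the mean of 6 mice, 1 point per mouse. Levels, by the longest transcript of each gene, run from Aldoa at 6362 to 7401 TPM down to Pfkp at 4.48 to 6.26 TPM. The genotypes mix except for Hk1, Gapdh, Pgk1 and Ugp2, higher in LSD1-mKO, and Pfkp, lower.

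WT mouse 1 weighed on the comparisons. On normalized CPM it was the highest WT mouse for 23 of the 33 members (69.7%), against 5125 of all 12828 genes tested (40%). The 23 included 11 of 16 glycolysis genes, 4 of 4 breakdown genes and 6 of 6 synthesis genes. On TPM it was the highest WT mouse for 16 of 31 members, and the share over all genes was not computed on that scale. Fitted without that mouse, 7 members were higher at an unadjusted p under 0.05, against 6.43% of genes, and 1 was lower, against 7.98%. The 7 were Hk1, Hk2, Gapdh, Pgk1, Phka1, Gyg and Ugp2, the 1 was Pfkfb3, and none passed an adjusted p of 0.05 (lowest 0.208, for Ugp2, edgeR). The median without that mouse was 0.137 for glycolysis, 0.234 for breakdown and 0.224 for synthesis. Its low fibroblast and immune marker sums are given above, and their part in these values was not tested.

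Fiber type markers were compared because glycolytic enzymes differ between fiber types. The 10 fast fiber markers summed to 80470, 69398 and 77570 TPM in the WT mice and to 82327, 66313 and 75743 in the LSD1-mKO mice, and 1 of the 10, Actn3, had an unadjusted p under 0.05. Actn3, the actinin of fast fibers, was at 91.9, 63.6 and 198 normalized CPM against 497, 165 and 341 (log2 fold change 1.5; unadjusted p = 0.0128 and adjusted p = 0.636, edgeR). LSD1-mKO mouse 2 lay below WT mouse 3, so the Actn3 groups overlapped. The other fast fiber markers ran from -0.49 (Pvalb) to 0.18 (Myh1) in log2 fold change, and the median of the 10 was -0.02. The 8 type I markers summed to 51507, 48790 and 52649 TPM against 56723, 60234 and 49678, with 0 of 8 at that limit. Myh2, the type IIA myosin, had a log2 fold change of -0.25. Each of the 3 sums overlapped between genotypes, and the part of fiber type in the members' values was not tested.

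Beyond the 33, a list of 39 other genes of these pathways was examined, of which 31 passed the filter on low counts. None passed an adjusted p of 0.05 (edgeR). At an unadjusted p under 0.05, 4 of the 31 were higher, against 3.52% of all genes tested, and 1 was lower, against 2.88%. The higher ones were Pgm5, a phosphoglucomutase relative of muscle cell contacts (0.36 ± 0.12), Pgm2l1, which makes glucose 1,6-bisphosphate (0.30 ± 0.11), Nhlrc1, the ubiquitin ligase malin (0.52 ± 0.20), and Gsk3b, a kinase that restrains glycogen synthase (0.22 ± 0.09; log2 fold change ± SE). The groups did not overlap in the higher direction for 2 of the 31, Pgm2l1 and Gsk3b, a share of 6.45% beside 6.63% of all genes tested.

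Phka2, the liver form of the phosphorylase kinase alpha subunit, was the lower one. It was at 14.6, 13.7 and 14.5 normalized CPM in the WT mice and at 11, 10.9 and 12.3 in the LSD1-mKO mice, without overlap, as for 6.10% of all genes tested in that direction. Its log2 fold change was -0.32 ± 0.12 (SE; unadjusted p = 0.0228 and adjusted p = 0.708, edgeR), beside 0.15 ± 0.13 for the muscle form Phka1. Slc2a4, the insulin-responsive glucose transporter GLUT4, was at 657, 558 and 575 normalized CPM against 657, 557 and 573.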

How the data were processed

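Poly(A) RNA of Sol was read as 75-base single-end reads in 6 mice. Per the submitters' notes the authors used STAR and mm10, and the deposited table holds estimated counts by gene without normalization. The counting tool and annotation are not given in the sources used here. Between 8.33% and 9.94% of values per library are not whole. A deposited table of the authors' DESeq2 comparison (log2 fold changes of WT over LSD1-mKO, p-values) was not used. Columns were matched to mice by the number opening each label. Counts were rounded and fitted with edgeR 4.0.16 (filterByExpr, TMM, quasi-likelihood, genotype as the only term) on R 4.3.3, and p-values adjusted over 12828 genes. For TPM, each gene took its longest GENCODE vM21 transcript that codes for protein (23350 genes matched by symbol and 669 by an older one). Alternatives were DESeq2 1.42.0, limma 3.58.1 voom, other scalings and filters, a replicate block and leaving out each mouse. Counting error was not modelled apart from these fits. The members, gene lists, marker lists and tests were chosen with earlier results of these data known. Values per mouse are given for Kdm1a, members with groups apart or an unadjusted p under 0.05, and the member with the highest TPM of each role. Other pathway genes are named where unadjusted p was under 0.05, and further genes named were chosen after their values were seen.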

Additional observations from a re-analysis of the deposited data

How the results depend on the processing

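With 3 mice per genotype, differences well under 1.5-fold were not resolved for most members, and 6 members (Pfkm, Pfkp, Aldoa, Gapdh, Eno1 and Phkg1) had counts that were not whole in at least 5 libraries. No member passed an adjusted p of 0.05 under any of the 14 alternative fits. Numbers shared between genotypes did not pair the mice (correlation of deviations -0.352, -0.107 and -0.15 over 12828 genes). With a replicate block, 1 member was higher at an unadjusted p under 0.05, beside 322 of all 12828 genes tested. Leaving out each mouse gave 1 to 7 members higher and 0 to 1 lower at that limit, and median log2 fold changes of 0.006 to 0.224 for glycogen synthesis, -0.008 to 0.156 for all members, -0.005 to 0.137 for glycolysis and 0.014 to 0.234 for breakdown. Omitting WT mouse 1 gave the highest of these medians and the 7 members, beside 841 of 13079 genes tested. Omitting LSD1-mKO mouse 1 gave 4, beside 451 of 12984. Omitting WT mouse 3 or LSD1-mKO mouse 2 gave 2, beside 303 of 12960 and 439 of 13033. Omitting WT mouse 2 or LSD1-mKO mouse 3 gave 1, beside 385 of 12970 and 272 of 13062. The 1 lower member came from omitting WT mouse 1, WT mouse 2 or LSD1-mKO mouse 1, beside 1044, 352 and 503 genes lower. The negative medians came from omitting WT mouse 2. Of 462 fitted values of the 33 members under alternatives, 37 changed direction, none of them a called value, and 31 of these came from leaving out 1 mouse. With library size alone as scaling, Eno1 was at -0.02, Pkm at -0.001 and Phkb at -0.011. With the replicate block Pfkfb3 was at 0.022 and Ppp1r3c at 0.064, and Ppp1r3c was at 0.044 by limma voom. Leaving out each mouse gave ranges of -0.183 to 0.448 for Slc2a1, -0.003 to 0.187 for Hk2, -0.123 to 0.091 for Pfkm, -0.104 to 0.058 for Pgam2, -0.154 to 0.312 for Eno1, -0.075 to 0.156 for Eno3, -0.027 to 0.091 for Pkm, -0.337 to 0.033 for Pfkfb1, -0.401 to 0.185 for Pfkfb3, -0.059 to 0.183 for Pygm, -0.056 to 0.073 for Phkb, -0.046 to 0.164 for Gys1, -0.047 to 0.331 for Gbe1 and -0.611 to 0.66 for Ppp1r3c. The cause was not tested. For Kdm1a the log2 fold change stayed between -1.303 and -1.168, while its adjusted p reached 0.299 with the block and was also above 0.05 on omitting WT mouse 2 or any 1 of the LSD1-mKO mice. With the median transcript length, mean summed TPM moved from 19166 to 23118 for glycolysis, from 1841 to 1482 for breakdown and from 2428 to 1788 for synthesis. On normalized CPM instead of TPM, Hk2 made up 94.9%, Pfkm 98.6%, Pgam2 95.4% and Eno3 95.6% of their steps, and Eno3 made up 94.0% of TPM where Eno1b was counted with Eno1, an alternative chosen after seeing the data. On that scale Gys1 over Pygm was 0.284, Fbp2 over Pfkm 0.00473, glycolysis over breakdown 6.01, glycolysis over synthesis 4.91 and synthesis over breakdown 1.23.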
